A study of Mus musculus with 572 samples.

Results

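The Cd80-high and Cd80-low classes are the ends of the Cd80 range among single mTEChi of Aire/EED-dKO mice, and their cells were chosen by measured Cd80 values. Cells were ranked by Cd80 CPM (counts per 1000000 reads counted in the cell) within each experimental batch, and the 25% with the highest and the 25% with the lowest values were taken. This gave 66 Cd80-high and 66 Cd80-low cells out of 572 cells in the series. Batches 1, 2, 6 and 7 held 88, 76, 38 and 67 Aire/EED-dKO cells, of which 22, 19, 9 and 16 went into each class. The cells between them formed a lower-middle (68 cells) and an upper-middle class (69 cells). The same rule in EED-cKO cells, of which batches 3, 4, 8 and 9 held 87, 76, 63 and 77, gave 74 high and 74 low cells.

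In the series, mTEChi (medullary thymic epithelial cells with high MHC class II) were sorted one to a well from neonatal thymi as DAPI-, CD45-, EpCAM+, Ly51- and MHCII-high, and their total RNA was sequenced by RamDA-seq, a full-length method without molecular identifiers. All mice, on a C57BL/6 background, carried floxed Eed and Foxn1-Cre, which deletes Eed, a core subunit of the repressive complex PRC2, in the thymic epithelium. Aire/EED-dKO mice lacked Aire as well and were taken at day 4, and EED-cKO mice had Aire and were taken at day 4 (batches 3 and 4) or day 3 (batches 8 and 9). The gate did not use the CD80 protein, and no label names the animal or sex of a cell, so each class counts as 1 sample, genotype and batch cannot be told apart, and the 4 batches are given as a range without a p-value. With 4 batches as pairs, an exact sign-flip permutation test could not give a p below 0.125.

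CD80 (B7-1) and its relative CD86 are the ligands of CD28 and CTLA-4, and they give T cells the second signal beside the antigen receptor. In the thymic medulla, epithelial cells that mature under RANK and NF-kB signalling gain CD80, MHC class II and Aire, and they present self antigens to developing T cells. Surface CD80 is therefore often used with MHC class II to tell mature from immature medullary cells.

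By construction the classes did not overlap in Cd80, and its values are given only to describe them. The Cd80-low cells ran from 0.984 to 94.3 CPM with a median of 52.01, and the Cd80-high cells from 280.5 to 1505 CPM with a median of 526. In reads, these medians were 33 and 460 per cell, so the low class was not empty of Cd80. The last cell inside and the first outside the low class stood at 79.1 and 79.6 CPM in batch 1, 94.3 and 100.7 in batch 2, 83.4 and 102.1 in batch 6, and 66.7 and 67.97 in batch 7. At the upper border the pairs were 343 inside and 337 outside in batch 1, 423 and 417 in batch 2, 280.5 and 273.6 in batch 6, and 297.6 and 295.4 in batch 7. Of these pairs, that at the low border of batch 6 lay farthest apart (the plot of Cd80 by cell).

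**Figure D1:**
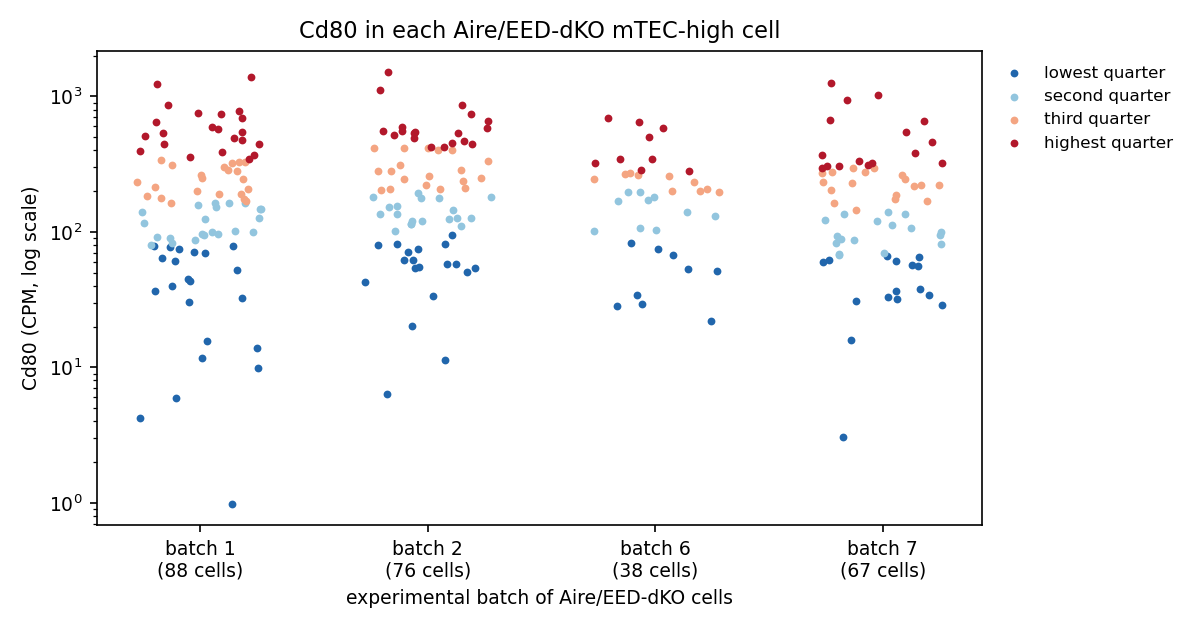
Cd80 in CPM on a log scale for each Aire/EED-dKO cell, in columns by experimental batch, with sideways scatter for view only and the 4 classes of each batch in colour. The 66 Cd80-high cells sit between 280.5 and 1505 CPM and the 66 Cd80-low cells between 0.984 and 94.3 CPM, with the middle cells filling the range between.

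Both classes had like depth. Total reads per cell had a median of 942178 in the low and 939317 in the high class, although batch 1 had more reads in its low cells (median 1074241 against 814256) and batch 2 more in its high cells (1029200 against 711032). A median of 15031 genes per low and 14518 per high cell had a read, and mitochondrial genes took a median of 0.775% and 0.710% of reads. Both classes carried epithelial transcripts, with Krt8 at 274.4 and 303.2, Epcam at 283.5 and 199.5 and Foxn1 at 185.3 and 269.6 CPM in low and high cells, and all 66 cells of each class had reads of these 3 genes. Aire, deleted in these mice, was at 39.4 CPM in low and 19.7 CPM in high cells, but 1 low cell held 75.3% of the reads in its class, and the median cells had 5.52 and 8.92 CPM. That cell, of batch 7, had 1665 CPM of Aire, above the median EED-cKO cell (743 CPM), which goes against its Aire/EED-dKO label, and the next highest Aire/EED-dKO cell had 323.9 CPM. Without it the other low cells pooled to 9.90 CPM of Aire. The cell was kept, and once it was left out and the classes were chosen again, an alternative chosen after seeing the data, 779 genes were called higher and 1272 lower, against 748 and 1287 with it, and 77 of the 78 calls of named genes were kept, all but that of Ackr4 (-0.95). Eed had 15.1 and 10.2 CPM, where reads outside the deleted exons may still be counted.

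Markers of blood cells were followed because leukocytes also carry Cd80 and Cd86. The CD45 gene Ptprc had reads in 18 low and 14 high cells, at 13.4 and 36.1 CPM, and its log2 ratio was -2.78, 1.90, 7.46 and 0.78 in batches 1, 2, 6 and 7. In the high class 1 cell held 52.4% of these reads. The 10 T lineage genes together stood at 25.2 CPM in low and 79.97 CPM in high cells (batches 13.8 to 51.1 and 30.6 to 153.9), of which Rag1 gave 2.30 and 37.9, and 5 of them passed the minimum of reads with 0 called, where 3.63% of all genes were called higher and 6.24% lower. Outside this list, and named after their values were seen, the T cell receptor constant genes Trbc1 (2.37 and 9.71 CPM) and Trbc2 (2.54 and 9.18 CPM) were called higher. Of 11 dendritic and myeloid genes, 6 passed and 1 (16.7% beside 3.63%), Lyz2, was called higher, while Itgax stood at 0.0169 and 0.216, Flt3 at 0.458 and 3.36 and Cd209a at 0.0508 and 0.349 CPM, and no gene of the list was at 0 in both classes. The list summed to 347 CPM in low and 622 CPM in high cells (batches 240.2 to 458 and 422 to 746). Pan-leukocyte genes summed to 457 and 714 CPM (batches 339.9 to 649.9 and 585 to 866), mostly from Laptm5, Cd52 and Coro1a, each read in 57 to 66 cells of a class. B lineage genes summed to 137.6 and 237.9 CPM, mostly Pax5 and Cd79b. The sums of the dendritic and myeloid, pan-leukocyte and B lineage lists were higher in the high class in each batch. That of T lineage genes fell in batch 7 (51.1 to 34.6 CPM), and Ptprc changed sign between batches. The part of these levels in the results was not tested.

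For every gene the reads of all cells in a class were added up and scaled to CPM, and the log2 ratio of Cd80-high over Cd80-low cells was taken with 0.1 CPM added. A gene was called higher or lower when the pooled ratio was at least 1 in size (a 2-fold change) and had the same sign in each of the 4 batches. Of 20634 genes tested, 748 (3.63%) were called higher and 1287 (6.24%) lower in Cd80-high cells. The median gene had a ratio of -0.20, so most genes were slightly lower in CPM, and scaling by TMM, which moved this median to -0.03, turned the split to 1062 higher and 887 lower (54.5% higher in place of 36.8%). LincRNAs, which were 918 of the genes tested, gave 93 higher and 45 lower calls, and protein-coding genes 458 and 950 of 15247.

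Genes called higher were ranked among protein-coding genes with at least 5 reads in 20% or more of Aire/EED-dKO cells. The 15 with the largest ratio in their weakest batch were Slamf1, Spp1, Serpinb12, Tg, Ccl22, P2ry10, Cd86, Il1rl1, Pla1a, Slamf7, Cd244a, Plekhs1, Myo1g, Slc14a1 and Tinagl1 (the plot of named genes). Cd86, the other B7 ligand of CD28, was at least 2-fold higher in each batch. It went from 5.45, 12.9, 17.6 and 10.4 CPM in the low cells of batches 1, 2, 6 and 7 to 170.7, 92.8, 78.7 and 102.6 CPM in the high cells, a pooled ratio of 3.52 on the log2 scale (batches 2.15 to 4.94). The pooled levels were 10.2 CPM (exact 95% Poisson interval 9.39 to 11.03) and 117.5 CPM (114.8 to 120.3), intervals that here and elsewhere cover counting error only. Single cells ran from 0 to 108.3 CPM (median 1.47) in the low and from 0 to 699 CPM (median 33.8) in the high class, so the classes overlapped, with 52 of 66 high cells above the median low cell and 5 of 66 low cells above the median high cell.

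Pla1a, a phospholipase of phosphatidylserine, was detected in all 66 high cells and in 59 low cells. Its low cells had 26.2, 49.3, 29.5 and 50.6 CPM by batch and its high cells 245.5, 210.3, 180.9 and 193.9 CPM, with a pooled ratio of 2.47. Myo1g, an unconventional myosin, had 17.3 and 105.2 CPM (ratio 2.60) and median cells of 1.05 and 41.5 CPM. In these genes the bulk of high cells moved, whereas for others the pooled level came from few cells. The chemokine gene Ccl22 had 11.03 and 124.3 CPM (ratio 3.48), but its median cells had 1.72 and 3.16 CPM, and 1 high cell gave 31.2% of the reads. Il1rl1, the receptor of IL-33, had 4.73 and 72.9 CPM (ratio 3.92, batches 2.14 to 4.71), of which 1 cell held 56.8%. Thyroglobulin (Tg), whose gene overlaps another, had 5.68 and 52.5 CPM and reads in 28 low and 38 high cells. Osteopontin (Spp1), which also overlaps another gene, had 1.29 and 15.1 CPM and reads in 21 and 32 cells.

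The remaining genes of this group had ratios from 1.76 (Tinagl1) to 3.88 (P2ry10, a lysophospholipid receptor). Plekhs1 had 21.9 and 136.04 CPM, Slc14a1, a urea transporter, 27.05 and 126.05 CPM, and Serpinb12, a serine protease inhibitor, 5.88 and 74.4 CPM. Each of the 15 was above 0 in all 4 batches by the rule that chose it, and the batch values were widest for P2ry10 (2.38 to 8.07) and narrowest for Tinagl1 (1.57 to 2.13). Ccr7, the receptor for CCL19 and CCL21, fell outside the rule and was named after its values were seen, with 43.8 and 197.3 CPM (ratio 2.17, batches 1.38 to 3.43), as were Cd200 (41.2 and 121.3 CPM) and the repressor Etv3 (109.6 and 319 CPM).

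**Figure D2:**
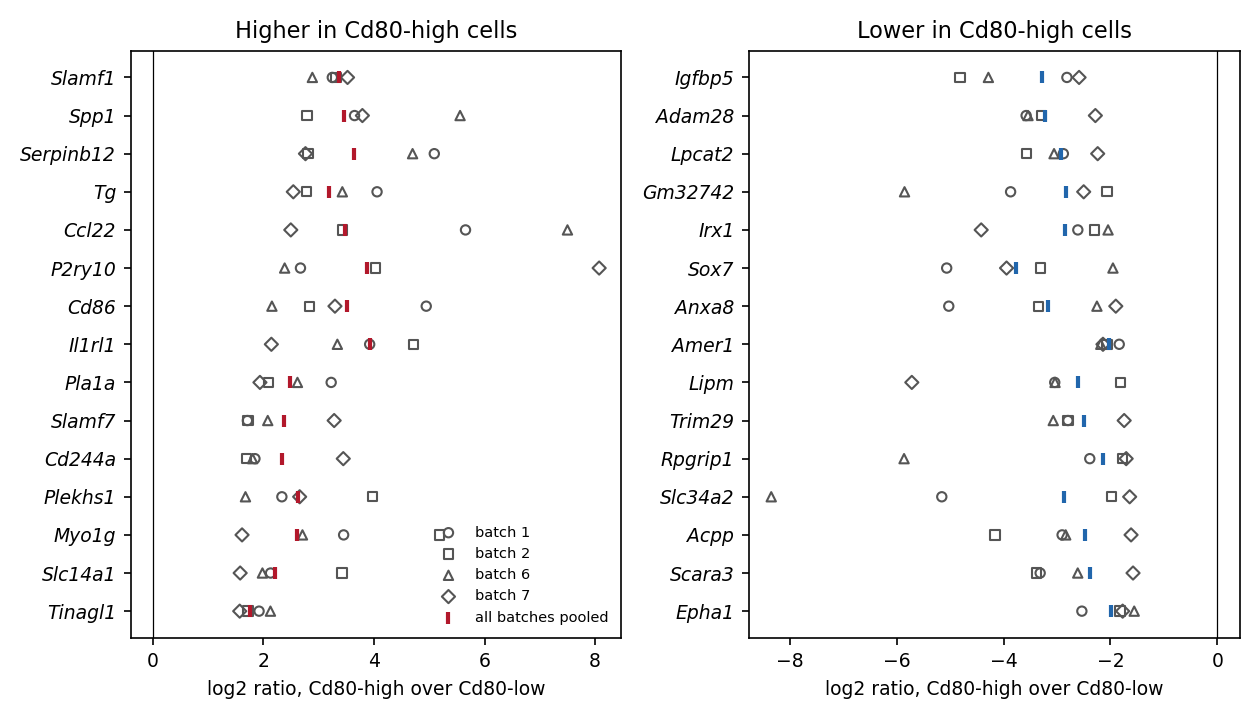
Log2 ratio of Cd80-high over Cd80-low cells for the 15 genes named in each direction, with open symbols for the 4 batches and a coloured bar for the pooled value. The batch values lie on 1 side of 0 for every gene, as the rule requires, and pooled ratios run from 1.76 (Tinagl1) to 3.92 (Il1rl1) on the left and from -1.998 (Epha1) to -3.76 (Sox7) on the right.

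Slamf1, Slamf7 and Cd244a belong to the SLAM family, receptors of lymphocytes that mostly bind themselves or each other and whose genes lie side by side on chromosome 1. This neighbourhood was looked at after the values were seen. Within 250 kb of Slamf1 (mm10, chr1:171767127-171801184, + strand), 8 genes passed the minimum and 5 were called higher, beside 3.63% of all genes, all of the SLAM family, namely Slamf1, Slamf7, Cd244a, Ly9 and Cd84. The first 3 of these prompted the look. Slamf1 had 1.85, 4.89, 4.23 and 4.69 CPM in the low cells of the 4 batches and 18.3, 49.4, 31.8 and 54.8 CPM in the high cells, with reads in 22 low and 36 high cells. Slamf7 went from 9.39 to 48.7 CPM with reads in 32 and 58 cells, and Cd84 from 0.847 to 2.54 CPM. In batch terms Slamf1, Slamf7 and Cd244a were at least 2-fold higher in each of the 4. Cd244a (2.17 and 11.3 CPM) and Ly9 (9.37 and 23.2 CPM) overlap on opposite strands, and the counts, made without regard to strand, may not tell them apart. Slamf6 (2.77, 4.44, 2.29 and -2.86 by batch) changed sign in batch 7 and was not called, and Vangl2, a planar polarity gene, had 58.4 and 39.4 CPM, lower in each batch but short of 2-fold. Cd48, the ligand of CD244, did not pass the minimum (0.186 and 1.28 CPM).

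Pla1a lies 22.4 kb before Cd80 (mm10, chr16:38455561-38496335, + strand), so the genes around Cd80 were given in the same way. Within 250 kb, 15 genes other than Cd80 passed, 3 were called higher beside 3.63% of all genes (Pla1a, which prompted the look, the antisense transcript D930030I03Rik and the pseudogene Gm15953) and 0 lower, and 7 were above 0 in each batch while 0 were below 0 in each. The ratios were 1.80 for D930030I03Rik (0.830 and 3.14 CPM) and 2.26 for Gm15953 (4.10 and 20.02 CPM), which lies within Timmdc1, the next gene downstream. Adprh, 2.86 kb before Cd80, had 51.5 and 65.1 CPM (ratio 0.34), and Timmdc1, 2.01 kb after Cd80, 17.8 and 32.8 CPM (ratio 0.87). D930030I03Rik overlaps Adprh, and Gm15953 Timmdc1, on the opposite strand, and the counts, made without regard to strand, may not tell them apart. Pla1a had the largest ratio of the 15, and Gsk3b, 209.5 kb before Cd80, was at 401 and 332 CPM. Of all genes tested, 8.99% were above 0 in each batch.

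The promoter of Cd80 is shown because the gene defines the classes, with those of 3 genes called higher, Slamf7, Rel and Cxcl10, for comparison. They are the 250 bases before the start of RefSeq (GRCm38.p6), written 5′ to 3′ on the strand of the gene, and capitals mark matches on either strand to 3 motifs, the AP-1 motif TGANTCA, and, by name, the NF-kB motif and the interferon-stimulated response motif.
Cd80 (chr16:38458683-38458932, + strand): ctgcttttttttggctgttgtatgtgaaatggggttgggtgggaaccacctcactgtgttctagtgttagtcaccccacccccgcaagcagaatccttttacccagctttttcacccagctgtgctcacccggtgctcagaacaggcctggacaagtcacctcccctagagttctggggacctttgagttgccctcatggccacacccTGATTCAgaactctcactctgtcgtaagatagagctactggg
Slamf7 (chr1:171649000-171649249, - strand): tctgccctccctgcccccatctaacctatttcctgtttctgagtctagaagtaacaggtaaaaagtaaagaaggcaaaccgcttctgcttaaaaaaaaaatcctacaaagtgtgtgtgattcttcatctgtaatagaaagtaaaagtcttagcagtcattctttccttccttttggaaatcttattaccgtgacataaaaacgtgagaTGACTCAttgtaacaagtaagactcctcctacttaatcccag
Rel (chr11:23770970-23771219, - strand): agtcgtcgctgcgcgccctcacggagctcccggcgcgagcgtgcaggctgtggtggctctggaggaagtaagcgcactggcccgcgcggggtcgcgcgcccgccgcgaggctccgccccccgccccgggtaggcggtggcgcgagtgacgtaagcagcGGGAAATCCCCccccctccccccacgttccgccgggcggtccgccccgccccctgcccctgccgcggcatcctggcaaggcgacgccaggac
Cxcl10 (chr5:92348890-92349139, - strand): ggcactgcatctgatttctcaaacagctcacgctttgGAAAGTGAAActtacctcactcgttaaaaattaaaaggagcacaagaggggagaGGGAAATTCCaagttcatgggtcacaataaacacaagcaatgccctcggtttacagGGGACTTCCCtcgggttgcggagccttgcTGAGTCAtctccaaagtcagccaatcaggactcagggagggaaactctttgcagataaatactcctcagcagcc
Cd80 and Slamf7 each held 1 match to the AP-1 letters, TGATTCA and TGACTCA, both beginning 42 bases before the start. Rel, itself a subunit of NF-kB, held 2 overlapping NF-kB matches, GGGAAATCCC and GGAAATCCCC, and Cxcl10 held 2 NF-kB matches, 1 AP-1 match and 1 response element, none of which overlapped. The 3 genes shown beside Cd80 all held a match, which most genes called higher did not. Of the 15 genes named above as higher, Slamf1, Ccl22, Il1rl1, Plekhs1 and Myo1g held none. Serpinb12, P2ry10, Cd244a and Tinagl1 held an AP-1 match and Spp1 a response motif. Over all 32851 promoters of this length the AP-1 letters stood in 6.75%, the NF-kB motif in 3.899% and the response motif in 2.98%. Of 349 protein-coding genes called higher that had a promoter in the table, 34 (9.74%), 19 (5.44%) and 23 (6.59%) held them, against 46 (6.49%), 52 (7.33%) and 19 (2.68%) of 709 called lower and 694 (5.84%), 685 (5.77%) and 379 (3.19%) of the 11877 tested. The RefSeq start of Cd80 lies within the gene's span given above, and other starts were not searched. A match is a stretch of letters in this window and was not tested as a binding site.

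Among other costimulatory ligands the shift was uneven. Of 7 B7 family genes other than Cd80, 6 passed and 1 (16.7% beside 3.63% of all genes), Cd86, was called higher. Icosl, the ligand of ICOS, had 688 and 1211 CPM (ratio 0.82, batches 0.27 to 1.56), above 0 in each batch but under 2-fold. The PD-1 ligand Cd274 had 227.3 and 230.3 CPM (ratio 0.019, batches -0.58 to 0.33), and Cd276 65.8 and 37.3 CPM, lower in each batch and under 2-fold. Of 10 genes of TNF-superfamily and other costimulation that passed, Cd40, the receptor through which T cells license presenting cells, was called higher, from 116.6, 164.5, 109.6 and 177.3 CPM in low to 322, 367, 232.1 and 281.4 CPM in high cells by batch. All 66 cells of each class had Cd40 reads, with median cells at 113.4 and 292.2 CPM. Nectin2 was called lower (48.7 and 24.2 CPM), so that each direction held 1 of 10, beside 3.63% of all genes called higher and 6.24% lower. The median of the 10 genes was 0.61 beside -0.20 for all genes. Without batch 1 the Cd40 ratio was 0.97 and without the 26 cells highest in mTEC-low markers 0.94, both under 2-fold, and that of Nectin2 was -0.86 without batch 2, -0.87 without batch 6 and -0.83 with TMM scaling.

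Of the antigen presentation genes listed, only H2-Eb2 and H2-Ob, both of MHC class II, were called. Of 14 genes of MHC class II presentation 13 had a pooled ratio above 0 and 9 were above 0 in each batch, with a median of 0.59 (list medians of 0.85, 0.19, 0.37 and 0.48 in batches 1, 2, 6 and 7), and 2 (14.3% beside 3.63% of all genes) were called higher. These were H2-Eb2, with 639 and 1279.6 CPM (batches 0.53 to 1.83), and H2-Ob, a chain of the DO modulator of peptide loading, with 81.7 and 190.7 CPM (batches 0.59 to 2.06). The 4 genes with the most reads, Cd74, H2-Aa, H2-Ab1 and H2-Eb1, had ratios of 0.24, 0.34, 0.42 and 0.43, largest in batch 1 (0.56 to 0.85) and at or below 0.0014 in batch 2. Without batch 1 the ratios of H2-Eb2 and H2-Ob were 0.64 and 0.87, under 2-fold, and that of H2-Eb2 was 0.76 without the 26 cells highest in mTEC-low markers. The list median was 0.39 without those 26 cells and 0.38 with 88 cells to a class. All cells of both classes had been gated for high MHC class II protein. Of 13 genes of MHC class I presentation 0 were called, with a median of 0.32.

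Of 24 genes of the RANK and NF-kB pathway 3 (12.5% beside 3.63% of all genes) were called higher and 0 lower, with a median of 0.25. The RANK gene Tnfrsf11a itself was close to equal, with 699 and 797 CPM (ratio 0.19, batches -0.00017 to 0.53), while its soluble counterpart osteoprotegerin, Tnfrsf11b, which captures the RANK ligand, had 329, 344, 278.8 and 257.001 CPM in low and 757, 678, 600.1 and 688 CPM in high cells of the 4 batches. Its median cells differed more than its pooled level, 92.7 against 666 CPM. Of the adaptors, Traf1 was called (97.6 and 251.8 CPM, ratio 1.37), and Traf6 (0.60), Traf3 (0.058) and Traf2 (-0.015) were not. Of the transcription factor subunits, Rel was called, with 101.8, 107.1, 79.8 and 142.99 CPM in low and 282.8, 247.3, 281.6 and 189.4 CPM in high cells. Relb, with 260.1 and 406 CPM, and Nfkb2, with 511 and 689 CPM, were above 0 in each batch without reaching 2-fold, and Rela had 94.4 and 98.6 CPM. Of 12 genes of mature mTEC-high, 4 (33.3% beside 3.63%) were called higher, namely Cd86, Cd40, Tnfrsf11b and Ccl22, 3 of which are in the lists above, and Fezf2, a regulator of self antigens independent of Aire, had 287.01 and 361 CPM (ratio 0.33).

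Of 16 chemokine and cytokine genes that passed 4 were called higher (Ccl22, Cxcl10, Il15 and Il1rl1) and 1, Ccl21a, lower, beside 3.63% and 6.24% of all genes, with a median of 0.80. Cxcl10, a ligand of CXCR3, had 135.7, 344, 284.7 and 278.6 CPM in low and 676, 576, 443 and 655 CPM in high cells, and was read in all 66 cells of each class, with a ratio of 0.92 without batch 1. Il15, which supports NK and NKT lineage cells, had 48.4 and 118.4 CPM with median cells of 31.3 and 100.3 CPM. Il7, the cytokine of early thymocytes, was lower in each batch (187.8 and 105.3 CPM, ratio -0.83) and was not called.

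**Figure D3:**
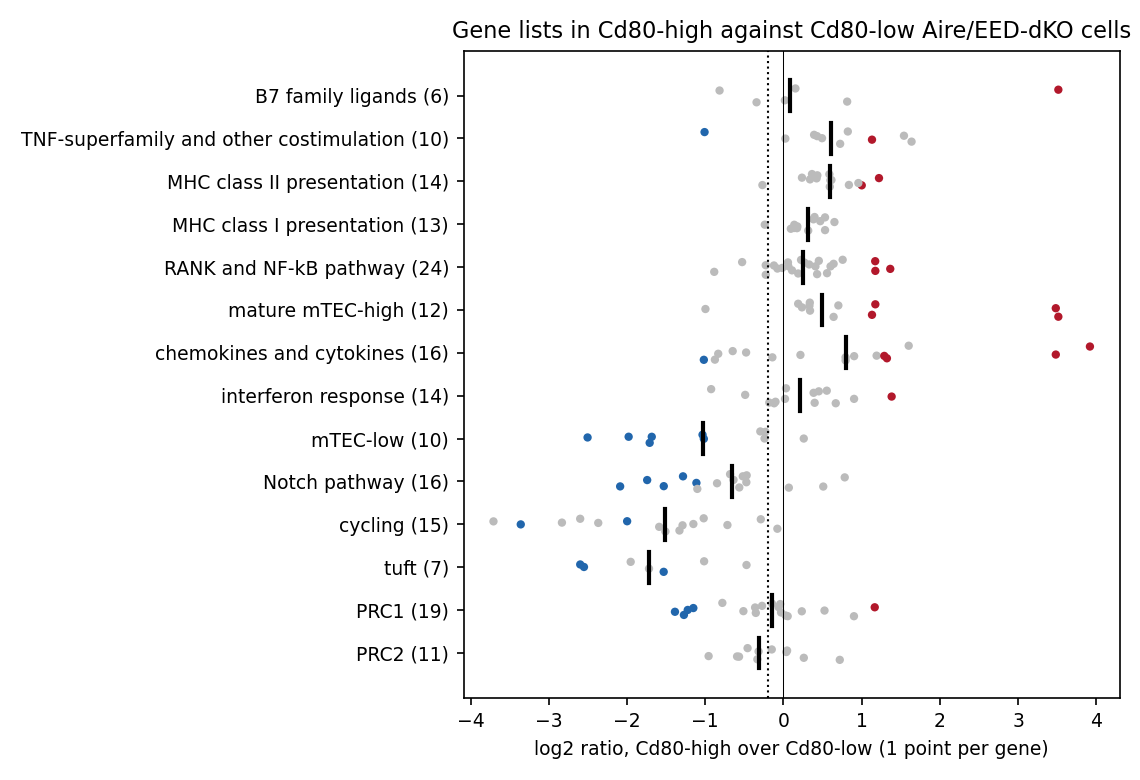
Log2 ratio of Cd80-high over Cd80-low cells for each gene of 14 lists that passed the minimum of reads (number in brackets), with red for genes called higher, blue for genes called lower, grey for the rest, a black bar at the list median and a dotted line at the median of all genes, -0.20. The medians run from -1.72 for tuft genes to 0.80 for chemokines and cytokines.

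Genes called lower were ranked in the same way, among protein-coding genes with at least 5 reads in 20% or more of Aire/EED-dKO cells. Those with the largest ratio in their weakest batch were Igfbp5, Adam28, Lpcat2, Gm32742, Irx1, Sox7, Anxa8, Amer1, Lipm, Trim29, Rpgrip1, Slc34a2, Acpp, Scara3 and Epha1. Igfbp5, which binds insulin-like growth factors, had 383, 201.1, 24.4 and 35.6 CPM in the low cells of the 4 batches and 54.3, 7.06, 1.16 and 5.84 CPM in the high cells (ratio -3.28). Single low cells ran from 0 to 2460.9 CPM with a median of 6.95, far under the pooled level. Trim29, a stratified epithelial gene, was more evenly spread, with 142.5 and 25.2 CPM, median cells of 36.3 and 8.04 CPM and 46 of 66 low cells above the median high cell. Acpp, an acid phosphatase, had 121.5 and 21.7 CPM (medians 30.03 and 1.06), Scara3 62.7 and 11.97 CPM (medians 19.2 and 1.52), Amer1, a regulator of Wnt signalling, 22.2 and 5.35 CPM (medians 12.2 and 0), and the ephrin receptor gene Epha1 22.1 and 5.45 CPM (medians 10.1 and 0.342). The transcription factor genes Irx1 (9.17 and 1.18 CPM) and Sox7 (35.9 and 2.56 CPM) were lower as well, and 1 cell held 49.6% of the Sox7 reads of the low class. Amer1 had the narrowest spread of batches, -2.18 to -1.84, and Slc34a2, a phosphate transporter whose gene overlaps another, the widest, -8.34 to -1.64.

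Of the 10 mTEC-low markers, genes of the immature, MHC class II-low medullary cells, 6 (60% beside 6.24% of all genes) were called lower and 0 higher, and their median was -1.03 (list medians of -1.33, -0.99, -0.49 and -0.75 in batches 1, 2, 6 and 7). The basal keratin gene Krt5 had 576, 376, 111.8 and 178.1 CPM in low and 31.1, 73.8, 43.2 and 105.3 CPM in high cells, a pooled ratio of -2.50. Its median cells were at 34.8 and 17.6 CPM, closer than the pooled levels. Its partner Krt14 had 283.9 and 88.3 CPM (ratio -1.68) and Trp63, the p63 gene of epithelial progenitors, 286.02 and 139.6 CPM (ratio -1.03). Lifr, the receptor of leukemia inhibitory factor, had 483, 463, 109.8 and 257.2 CPM in low and 121.2, 172.8, 20.95 and 82.1 CPM in high cells, Pdpn (podoplanin) 61.96 and 15.6 CPM, and Ccl21a, the CCR7 ligand of mTEC-low, 28.4 and 13.98 CPM with batch ratios of -1.24 to -0.89. Counts of Ccl21a may share reads with its near-identical copies. The integrin genes Itga6 (787 and 943 CPM) and Itgb4 (414 and 353 CPM) were not called. Without the 26 cells with the highest summed level of this list, the median was -0.59, and with TMM scaling -0.85. Choosing the cells left out by this same list tends in itself to bring its ratios toward 0. Of the 6 calls only that of Lifr was kept without these cells, with ratios of -0.62 for Krt14, -0.57 for Trp63, -0.96 for Pdpn, -0.67 for Ccl21a and -1.73 for Krt5, whose call was lost all the same. Trp63 fell short of 2-fold without batch 1 (-0.77) and with TMM (-0.86), as did Ccl21a (-0.88 and -0.84).

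Notch signalling, in which Delta and Jagged ligands act on receptors of neighbouring cells and switch on Hes and Hey repressors, was represented by 16 genes that passed, of which 5 (31.3% beside 6.24% of all genes) were called lower and 0 higher, with a median of -0.66. Of the ligands, Jag1 had 156.7 and 72.4 CPM (ratio -1.11), Jag2 88.99 and 30.8 CPM (ratio -1.53) and Dll1 19.3 and 5.69 CPM (ratio -1.74), all called, whereas Dll4 had 27.9 and 48.1 CPM and batch ratios on both sides of 0. Of the targets, Hes1 was called, with 59.6, 44.8, 49.9 and 29.3 CPM in low and 15.5, 9.79, 2.08 and 11.96 CPM in high cells, and so was Heyl (91.8 and 37.7 CPM), although its ratio in batch 6 was only -0.061. The receptors Notch1 (317 and 228.8 CPM) and Notch2 (510.0 and 356 CPM) and the effector Rbpj (225.7 and 321 CPM) were not called. Jag1 and Heyl lost their calls without batch 1 (-0.59 and -0.95) and with TMM (-0.94 and, with batch 6 above 0, -1.11), and without the 26 cells highest in mTEC-low markers (-0.68 and -0.96), where Dll1 lost its call too (-1.68). Jun, an AP-1 subunit of the immediate early list, was the 1 of its 11 genes called, lower at 166.7 and 55.5 CPM (batches -1.97 to -1.33), while Fos had 152.2 and 85.8 CPM and Junb 120.9 and 145.1 CPM. Tgfbi, an extracellular matrix gene from a list of genes that led other classes of these same cells, had 146.6 and 32.5 CPM (ratio -2.17). The calls of Jun (-1.19) and Tgfbi (-0.95) were lost without the 26 cells highest in mTEC-low markers.

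Cycling genes differed by batch. All 15 had a pooled ratio below 0, with a median of -1.51, but only Aurkb (10.6 and 0.948 CPM) and Tyms (15.6 and 3.82 CPM) were below 0 in each batch and called (13.3% beside 6.24% of all genes). The summed level of the list was 724, 126.9, 627 and 362 CPM in the low and 105.8, 197.9, 131.96 and 165.1 CPM in the high cells of batches 1, 2, 6 and 7, so that batch 2 went the other way. The proliferation marker Mki67 had ratios of -3.43, 0.063, -3.78 and -1.18. The median cells had 11.8 and 9.73 CPM of Mki67. Once the 25 Aire/EED-dKO cells of highest cycling level were left out and the classes chosen again, the list median was 0.072, Aurkb turned to 0.15 and Tyms stood at -0.45, both no longer called. As the cells left out were chosen by this same list, a move toward 0 is partly built in. Of 7 cell cycle inhibitors 1 was called higher and 1 lower (14.3% each, beside 3.63% and 6.24% of all genes), 6 were below 0 and the median was -0.47. Cdkn1a (p21) was called higher, 78.8 and 168.4 CPM (batches 0.80 to 1.88), and Cdkn2c (p18) lower, 17.7 and 8.51 CPM. Both calls were lost without the cells of highest cycling level (0.89 and -0.40). Without batch 7 their ratios were 0.92 and -0.94, and that of Cdkn2c was -0.86 without batch 1, -0.87 with TMM and -0.75 without the 26 cells highest in mTEC-low markers.

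PRC2 and PRC1 are the Polycomb complexes of chromatin repression, and PRC2 cannot act without EED. Of 11 PRC2 genes 0 were called (median -0.32), and of 19 PRC1 genes 4 (21.1% beside 6.24% of all genes) were called lower and 1 (5.26% beside 3.63%) higher (median -0.15). Those lower were Pcgf2 (33.03 and 14.8 CPM), Pcgf6 (12.5 and 4.72 CPM), Cbx2 (25.998 and 10.7 CPM) and Cbx6 (117.5 and 50.3 CPM). Pcgf5, the Polycomb ring finger gene called higher, had 95.3, 143.3, 97.6 and 93.3 CPM in low and 235.6, 311, 154.998 and 207.7 CPM in high cells, and the catalytic subunit genes Rnf2 and Ring1 had ratios of -0.51 and 0.029. Of the 17 Hox genes (of 39) that passed, Hoxa9 was called higher (7.02 and 14.7 CPM) and Hoxa3 lower (1.56 and 0.466 CPM). These calls were 5.88% in each direction, near the 3.63% of all genes called higher and 6.24% called lower. Calls were lost without batch 1 for Cbx6 (-0.91) and Hoxa9 (0.56), without batch 6 for Hoxa9 (0.95) with TMM for Pcgf2 (-0.98) and without the 26 cells highest in mTEC-low markers for Pcgf2 (-0.92) and Hoxa9 (0.90).

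Lists of mimetic cells, the medullary cells that carry programmes of other tissues, differed in their calls, with the most in the tuft list. Of 7 tuft genes 3 (42.9% beside 6.24% of all genes) were called lower. The regulator Pou2f3 (7.49 and 2.53 CPM), the taste channel gene Trpm5 (18.3 and 2.94 CPM) and Alox5 (22.1 and 3.69 CPM) were lower, but 1 low cell held 61.98% of the Trpm5 reads, its call was lost without the highest cell of each class (-1.72), and the median cell of either class had 0 CPM of Trpm5 and Pou2f3. The airway gene Bpifa1, the 1 call of 7 in its list, was lower, 113.4, 67.9, 2.05 and 18.9 CPM by batch in low and 1.06, 1.95, 0.232 and 2.31 CPM in high cells. The keratinocyte gene Flg (6.22 and 26.3 CPM), the lipoprotein gene Apob (2.32 and 93.8 CPM) and the prohormone convertase gene Pcsk1 (1.08 and 2.41 CPM) were higher, each the 1 call in its list, of 7 keratinocyte, 6 enterocyte and hepatocyte and 7 endocrine genes that passed, beside 3.63% of all genes. The medians of these lists were -0.16, -0.062 and 0.19, with 4, 3 and 3 genes below 0. The ratio of Pcsk1 was 0.83 without batch 1, 0.63 without batch 7 and, with the top and bottom 10% of cells, of the other sign (-0.47). For Apob 1 high cell held 93.3% and for Flg 52.9% of the reads, and their calls were lost without the 26 cells highest in mTEC-low markers (1.15 and 0.61). Of 8 microfold, 10 myoid, 6 ciliated and 1 parathyroid gene that passed, 0 were called, nor were any of 6 endothelial and mesenchymal genes.

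Of the remaining cell type lists, those of dendritic and myeloid, B lineage, pan-leukocyte and epithelial identity genes held 1 call each, and that of cTEC 2 of 10, Ly75 higher and Ackr4 lower, beside 3.63% of all genes called higher and 6.24% lower. Lyz2 (lysozyme), listed as myeloid, was read in all 66 cells of each class, with 235.4, 161.1, 159.6 and 266.98 CPM in low and 566, 278.6, 404 and 548 CPM in high cells and median cells of 51.4 and 373 CPM. Pax5, listed as B lineage, was read in 61 low and 64 high cells, with 82.5 and 172.4 CPM and median cells of 21.3 and 113.6 CPM. Fcer1g, a signalling chain of Fc receptors, had 16.3 and 39.1 CPM, and the endocytic receptor gene Ly75 (DEC-205), listed for cTEC, 80.3 and 190.3 CPM. The cadherin gene Cdh8, from the list that held Tgfbi, in which 3 of 8 genes were called higher (37.5% beside 3.63%, namely Il1rl1, Cd86 and Cdh8) and 1 lower, had 35.6 and 100.8 CPM with batch ratios of 0.48 to 3.20, and Mx1, an interferon-induced GTPase, 34.1 and 89.1 CPM. Lower were Krt19 (20.2 and 5.34 CPM), of epithelial identity, and Ackr4 (4.95 and 2.41 CPM), a scavenger of CCL21 listed for cTEC. Without batch 1 the ratios of Lyz2 and Pax5 were 0.98 and 0.64, and that of Ackr4 was -0.98 without batch 2, -0.86 without batch 7 and -0.84 with TMM. Calls were also lost without the 26 cells highest in mTEC-low markers for Mx1 (0.75), Lyz2 (0.93), Pax5 (0.78), Cdh8 (1.16) and Ackr4 (-0.32), and with 88 cells to a class for Mx1 (0.96), Lyz2 (0.91), Pax5 (0.77), Cdh8 (0.94) and Ackr4 (-0.88).

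The 68 and 69 cells of the middle classes did not enter the ratios that called these genes, although they counted toward the minimum of reads and were themselves split by Cd80. Of the 748 genes called higher, 560 (74.9%) were also higher in the upper-middle than in the lower-middle class, against 43.6% of all genes tested, and 886 of the 1287 called lower (68.8%) were lower, against 56.4%. Of all genes, 3.68% were at least 2-fold higher and 4.34% at least 2-fold lower between the middle classes. The middle ratios were small, with a median of 0.31 for genes called higher and -0.25 for those called lower beside -0.05 for all. Levels stood in the order of the 4 classes for 401 (53.6%) of the genes called higher and 584 (45.4%) of those called lower, against 6.85% and 15.3% of all genes, an order whose ends the calls fix. H2-Ob stepped from 81.7 to 92.7, 146.8 and 190.7 CPM, Rel from 110.4 to 132.8, 179.5 and 249.2 CPM and Cd40 from 142.4 to 209.4, 234.4 and 312 CPM. Cd86 had 10.2, 34.02, 33.5 and 117.5 CPM, level between the middle classes and highest at the end, and Hes1 stepped down from 47.03 to 26.01, 17.4 and 10.99 CPM. Ccl22, Il1rl1, Igfbp5 and Krt5 were among the 19 of 78 named called genes whose middle ratio had the other sign (-1.51, -2.21, 1.18 and 0.44).

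**Figure D4:**
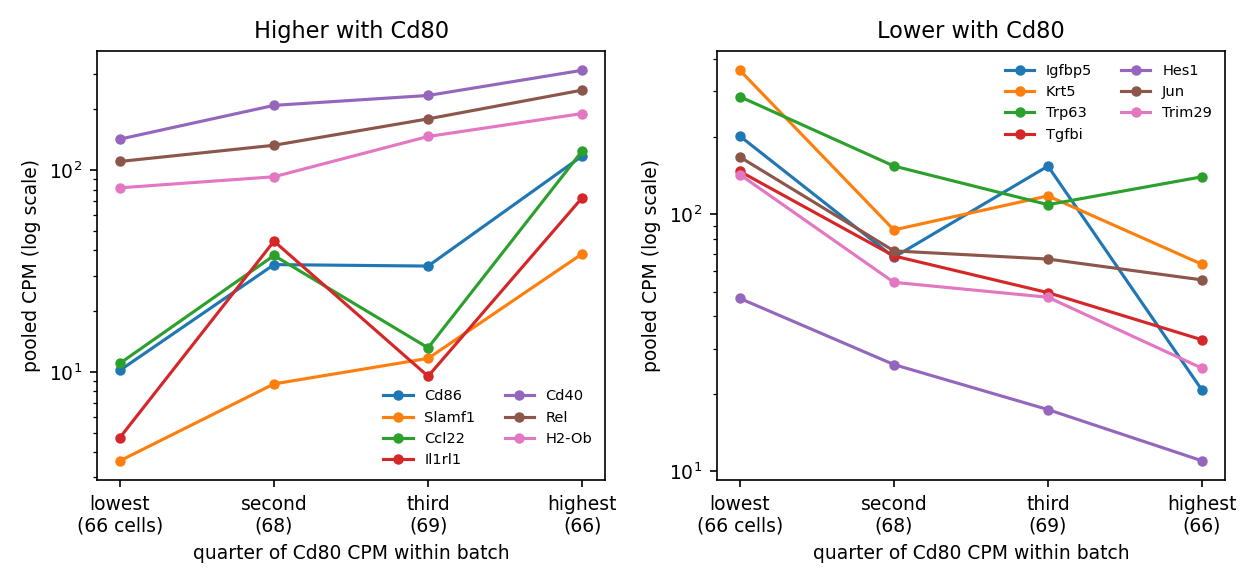
Pooled level in CPM on a log scale in the 4 classes of Cd80 CPM within batch, from lowest to highest, for 7 genes called higher (left) and 7 called lower (right). Cd40, Rel, H2-Ob and Slamf1 step up and Tgfbi, Hes1, Jun and Trim29 step down through all 4 classes, while Ccl22, Il1rl1, Igfbp5, Krt5, Trp63 and Cd86 do not keep the order in the middle.

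In EED-cKO cells, which have Aire, the same rule gave Cd80-high cells with a median of 259.5 CPM of Cd80 and Cd80-low cells with 8.93 CPM, both lower than in Aire/EED-dKO cells. There, 1088 of 21963 genes (4.95%) were called higher and 1635 (7.44%) lower. Of the 748 genes called higher in Aire/EED-dKO cells, 689 could be tested and 572 (83.02%) had a ratio above 0, against 40.5% of all genes tested in both, and the calls shared by both genotypes were 27.7% of the Aire/EED-dKO and 19.03% of the EED-cKO calls. Of 1287 called lower, 1035 of 1259 (82.2%) were below 0, against 59.5%, and 329 were called in both, 25.6% and 20.1% of the 2 lists. Of the 78 named called genes 30 were called in the same direction in EED-cKO, among them Cd86 (14.3 and 50.1 CPM), Pla1a (20.4 and 48.9), Tnfrsf11b (97.3 and 441), Rel (81.4 and 247.1), Il15 (31.1 and 73.2), Lifr (569 and 87.97), Hes1 (51.9 and 19.8) and Jun (213.4 and 95.2). Ccr7, at 31.5 and 39.1 CPM, and Il12rb1, an IL-12 receptor chain also named after its values were seen, at 11.6 and 8.06 CPM in EED-cKO against 3.86 and 16.1 in Aire/EED-dKO cells, were not called in EED-cKO cells. Aire, intact in EED-cKO mice, was called higher there in Cd80-high cells, with 446 and 1282 CPM.

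Set side by side, most of the lists described here had medians of the same sign in both genotypes. The counts of calls in EED-cKO cells stand beside 4.95% of all genes called higher and 7.44% lower there, and those in Aire/EED-dKO cells beside 3.63% and 6.24%. The mTEC-low median was -1.03 in Aire/EED-dKO and -0.73 in EED-cKO cells (2 of 10 called lower), the Notch median -0.66 and -0.38 (5 of 17 lower, 1 higher), the RANK and NF-kB median 0.25 and 0.43, and the B7 median 0.086 and 1.26, with 3 of 7 called higher in EED-cKO. Cycling genes were called lower for 11 of 15 in EED-cKO, where the median was -1.87. The interferon response list had a median of 0.21 with 1 of 14 genes called higher in Aire/EED-dKO cells, and of -1.38 with 10 of 15 called lower in EED-cKO cells. Gbp7 and Gbp2, guanylate-binding proteins, and Ifit1 were above 0 in each Aire/EED-dKO batch (0.38 to 0.97, 0.53 to 1.60 and 0.33 to 1.20) and below 0 in each EED-cKO batch (-2.28 to -0.79, -2.25 to -0.97 and -1.60 to -0.41). Of the 20008 genes tested in both genotypes, 0.79% had each Aire/EED-dKO batch on one side of 0 and each EED-cKO batch on the other. The EED-cKO batches of day 4, the age of the Aire/EED-dKO cells, are among those below 0. The difference between genotypes was not tested, and genotype and batch cannot be told apart.

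**Figure D5:**
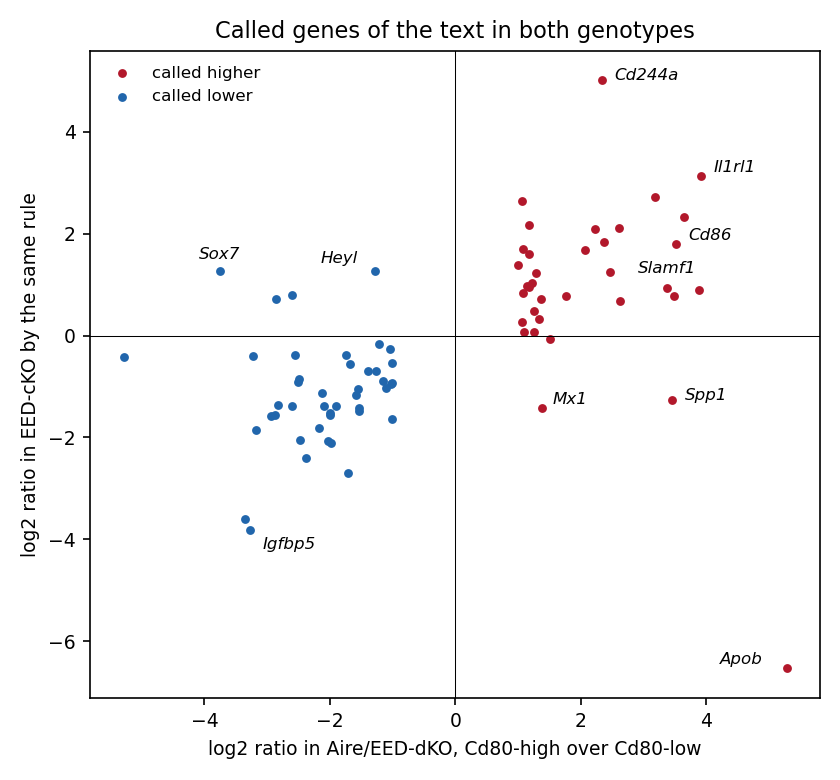
Log2 ratio of Cd80-high over Cd80-low cells in Aire/EED-dKO (horizontal) and by the same rule in EED-cKO (vertical) for the 78 named genes called in Aire/EED-dKO, 1 point per gene. Of 35 genes called higher 31 and of 43 called lower 39 have the same sign in EED-cKO, and Spp1, Mx1, Apob, Cdh8, Heyl, Sox7, Irx1 and Trpm5 do not.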

How the data were processed

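The authors trimmed the reads (fastp 0.20.0), aligned them to mm10 (STAR 2.7.3a) and counted them per gene without regard to strand (HTSeq 0.11.2), per the labels and the study's methods, and dropped cells with few reads or genes. The deposited table of raw read counts was used as given, and the normalized table was not used. The method has no molecular identifiers, so reads are not independent molecules. Names and positions came from GENCODE M21, and 186 of 50197 gene identifiers had no name there.

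CPM is reads per 1000000 reads of the cell or of the added cells. Testing took in genes that reached 5 reads in 5% or more of Aire/EED-dKO cells, without Cd80. Since no label names an animal, a class was 1 sample and no test was run. Exact 95% Poisson intervals cover counting error only. On simulated data for this comparison over 20634 genes, 100% of genes changed by 2 and 93.0% of those changed by 1.5 on the log2 scale were called, with 0.0783% of unchanged genes. The simulation gave every gene the same relative spread between cells and no batch effect, and changed only genes above 5 CPM. In the real data single cells can hold most reads of a gene, so these shares are not error rates of the calls reported. Genes were named by rule, namely list members that were called, up to 4 members with the most reads of each list described, and the 15 protein-coding genes in each direction with the largest ratio in their weakest batch among those that reached 5 reads in 20% or more of cells. Genes outside this rule were named after their values were seen. The cells and gene lists were chosen with earlier results of these data known. Alternatives were TMM (edgeR 4.0.16) and DESeq2 1.42.0 size factors, other pseudocounts, filters and classes, thinning to 200000 reads and leaving out each batch. Python 3.11.15 and R 4.3.3 were used. Single-gene values of 2 list members are not reported here.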

Additional observations from a re-analysis of the deposited data

Results flagged for a closer look

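For 3 of 82 values examined, 1 of the 4 batches stood far from the others, where chance alone gives about 1 in 20. Cd244a had a log2 ratio of 3.44 in batch 7 and of 1.69 to 1.85 in the others. Rpgrip1 had -5.86 in batch 6 and -2.39 to -1.71 in the others. H2-Eb2 had 1.83 in batch 1 and 0.53 to 0.73 in the others, and its pooled ratio without batch 1 was 0.64.

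For 6 of 341 list members and named genes compared, all 4 batches of Aire/EED-dKO cells moved one way and all 4 of EED-cKO cells the other, and the difference was not tested. The same held for 0.79% of all genes tested in both genotypes. The interferon-induced genes Gbp2, Gbp7 and Ifit1 had pooled ratios of 0.90, 0.55 and 0.67 in Aire/EED-dKO and of -1.46, -1.5 and -1.08 in EED-cKO cells, and the chemokine gene Cxcl16 had 0.79 and -0.33. The Notch target Heyl had -1.28 and 1.26 and the cell cycle inhibitor gene Cdkn1c -0.81 and 0.90. Genotype, batch and, in part, age cannot be told apart in these values.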

How the results depend on the processing

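No paired analysis was possible by the numbers in the labels, because these only name single cells. Each of the 4 batches holds both classes, and a paired analysis over batches could have been made but was not run, since the classes were cut on reads of the same cells and an exact sign-flip permutation test over 4 pairs cannot go below 0.125. The ratios of each batch are given instead. For the 78 named called genes over all alternatives, 1565 values moved by less than the spread between batches, 71 moved by more and 2 changed sign, Pcsk1 with the top and bottom 10% of cells (-0.47) and Aurkb without the cells of high cycling level (0.15). Without those cells the cycling median turned to 0.072. Of the 78 calls, 32 were lost with the top and bottom 10% of cells, 25 without the 26 cells highest in mTEC-low markers, 17 with 88 cells to a class, 14 without batch 1, 13 each without the cells of high cycling level and with thinning, 11 with classes set regardless of batch, and 1 to 9 with each other alternative that lost any. Those lost with the top and bottom 10% were Ackr4, Adam28, Alox5, Amer1, Anxa8, Apob, Aurkb, Bpifa1, Cbx2, Ccl22, Cdh8, Cdkn1a, Dll1, Fcer1g, Flg, H2-Ob, Hoxa3, Igfbp5, Il1rl1, Irx1, Jag1, Krt5, Pcgf6, Pcsk1, Pdpn, Pou2f3, Rpgrip1, Slc34a2, Tinagl1, Traf1, Trp63 and Tyms, and those with 88 cells Ackr4, Cd40, Cdh8, Cdkn1a, Cdkn2c, Gm32742, H2-Eb2, Jag1, Lyz2, Mx1, Nectin2, Pax5, Pcgf5, Pou2f3, Rel, Serpinb12 and Trp63. Of those lost with the top and bottom 10%, Pcsk1 (-0.47), Cdkn1a (0.55), Pou2f3 (-0.90) and Flg (0.12) fell short of 2-fold. The rest kept a pooled ratio past 2-fold, such as Il1rl1 (5.37) and Igfbp5 (-5.25), and lost the call because the batches did not share the sign. The RANK and NF-kB median was 0.42 with TMM, 0.43 with DESeq2 size factors and 0.39 with the top and bottom 10%. The mTEC-low median was -1.84 with the top and bottom 10% and -0.59 without those 26 cells. With at least 5 reads in 20% of cells, 435 genes were called higher and 734 lower, of the 14596 left to test. DESeq2 size factors gave 1078 higher and 871 lower calls (55.3% higher), and 887 of the 1287 lower calls were kept with TMM. Leaving out each batch, which leaves fewer batches to pass, gave 867 to 1258 higher calls (lowest without batch 1, highest without batch 7) and 1326 to 1957 lower calls (lowest without batch 1, highest without batch 2), with medians of 0.31 to 0.67 for MHC class II, 0.19 to 0.31 for RANK and NF-kB, -1.09 to -0.82 for mTEC-low and -2.06 to -0.98 for cycling. The day 4 batches of EED-cKO alone, with 2 batches to pass, gave 1881 higher and 3133 lower calls. Leaving out the highest cell of each class for each gene, an alternative chosen after seeing the data, gave 899 and 1577 calls, of which 631 and 1109 were shared with those reported. The cause of these shifts was not tested. With a median of 33 Cd80 reads per low cell, the order of low cells is coarse.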

Other observations

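Genes called in opposite directions in the 2 genotypes were 25 of the 20008 tested in both, listed after their values were seen and not tested. Of genes called higher in Aire/EED-dKO cells, 12 of 689 were called lower in EED-cKO cells, beside 7.44% of all genes there. Of those called lower, 13 of 1259 were called higher in EED-cKO cells, beside 4.95% of all genes. Among these 25 genes the T cell receptor constant genes Trbc1 and Trbc2 had log2 ratios of 1.99 and 1.81 in Aire/EED-dKO cells and of -2.55 and -2.66 in EED-cKO cells. Trbc1 went from 2.37 to 9.71 CPM in Aire/EED-dKO and from 4.32 to 0.654 CPM in EED-cKO cells, from low to high. The lipoprotein receptor gene Vldlr had 1.52 and -3.13, and the glucose transporter gene Slc2a3 -1.995 and 1.41.

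By biotype, lincRNAs had 93 higher and 45 lower calls of 918 tested with a median of 0.13, and processed pseudogenes 56 higher and 36 lower of 802 with a median of 0.010, while antisense transcripts had 42 and 71 of 1083. By level, 3.22% of the 5159 genes with the highest mean CPM were called higher and 2.36% lower, against 4.85% and 7.93% of the 5159 with the lowest.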
